A study of Hypsibius dujardini with 126 samples.

Results

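Embryos of the tardigrade Hypsibius dujardini labelled 12-18 h were compared with embryos labelled 5-9 h, to ask which transcripts rose or fell between these stretches of early development. Hypsibius dujardini is a freshwater water bear, a microscopic animal whose eggs are laid inside the shed cuticle of the mother. RNA was measured by CEL-Seq, which barcodes each sample and counts the 3' ends of its polyadenylated RNA, with 1 whole embryo per library. Embryos were chosen by label time and embryo number, from embryos 1-25 and embryos 79-126, and then by depth. The windows and the depth threshold were set with earlier results of these data known. Of 126 embryos in the series, 22 fell in either window and 18 were deep enough to use. The 12-18 h group held 14 embryos, of which 10 were kept (7 of 7 in embryos 1-25 and 3 of 7 in embryos 79-126). The 5-9 h group held 8 embryos, all of them kept (3 in embryos 1-25 and 5 in embryos 79-126). The labels name no strain or treatment. They also do not say which embryos had the same mother, so p-values speak of the scatter among single embryos, and some of these may be siblings.

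An animal embryo starts on RNA and protein that the mother placed in the egg. These maternal transcripts are degraded while the embryo's own genome is switched on, and the dividing cells then sort into inner and outer layers. In tardigrades, cleavage is followed by the movement of cells into the interior and the formation of layers, and later by segments and limbs. The labels give hours and no such stage for these embryos, and the files do not pair transcript IDs with gene names. Whether the windows match late cleavage and early layers therefore could not be checked, and the groups are called by their hours. For the same reason at most 2 IDs that rose and 2 that fell are named, with no role given to them. The time tag counts from fertilization whereas the growth protocol counts from the 2-cell stage, so time zero is uncertain.

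Both windows occur in each stretch of embryo numbers, called a run here because the labels name no batches. Total transcript counts of the kept embryos ranged from 129668 to 4196340. Within embryos 79-126 the 12-18 h embryos kept were labelled 12, 14 and 15 h and had fewer counts (129668 to 290699) than the 5-9 h embryos (309949 to 1726652). The 4 left out, labelled 13, 16, 17 and 18 h, had 2347 to 13251 counts. Embryo 11 (13 h, run 1-25) stood apart, with 250397 counts, 1.05 transcript counts per spike-in count and 13.8% of its counts on a single transcript model, so the main counts are also given without it. Outside both windows, 7 embryos labelled 28-34 h resembled the 5-9 h embryos rather than those before and after them, as described at the end.

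RNA levels of many genes differed between the windows, in both directions. Of 7195 transcript models tested, each treated as a gene, 569 changed (7.91% of those tested). Of these, 335 were higher at 12-18 h (4.66%) and 234 were lower (3.25%), by edgeR's quasi-likelihood F-test with the run as a covariate at a Benjamini-Hochberg adjusted p under 0.05. Without embryo 11 the test called 484 higher and 437 lower. The median log2 change of the higher genes was 1.94, with the middle 50% between 1.36 and 3.38, and that of the lower genes was -1.82, with the middle 50% between -2.87 and -1.43. Over all tested genes the median was -0.01. Leaving out embryo 6, 7, 94 or 95 gave 310, 371, 367 and 357 changed genes in all. These changes are relative to the TMM-scaled transcript counts of each embryo. Scaled to the spike-in RNAs instead, the median of all genes lay at -0.71 and the split became 143 higher and 1186 lower (10.8% higher, against 58.9% in the main test). Of the 569 genes, 376 were called under that scaling. Lower genes also outnumbered higher ones by limma (371 higher, 445 lower), with no embryo left out for depth (261 and 370) and between windows of 12-15 h and 7-9 h (39 and 47), so which direction held more genes depended on the setting.

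Large changes occurred in both directions. Of the 335 higher genes, 161 changed by over 4-fold and 61 by over 16-fold, and of the 234 lower genes, 101 and 23 did so. Single embryos varied widely around these means, with a common biological coefficient of variation of 69.3%. Every 12-18 h embryo lay above every 5-9 h embryo for 21 of the higher genes (0.292% of tested genes showed this separation, all of them called). Every 12-18 h embryo lay below every 5-9 h embryo for 51 of the lower genes, where 1.01% of tested genes showed it. Complete separation of the embryos was thus met by a minority of the changed genes in either direction.

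The changed genes were mostly present in both windows at different levels. Levels are given as CPM, the counts of a gene scaled to a common total of transcript counts per embryo. The higher genes had a median of 152 CPM at 12-18 h and 46.2 CPM at 5-9 h, and the lower genes had 43.2 CPM at 12-18 h and 157.8 CPM at 5-9 h. At 12-18 h 235 of the 335 higher genes averaged 100 CPM or more, against 100 of them at 5-9 h, and 73 of them averaged under 10 CPM at 5-9 h. Of the 234 lower genes, 50 averaged 100 CPM or more at 12-18 h, against 162 at 5-9 h, and 45 averaged under 10 CPM at 12-18 h. Of all 7195 tested genes, 1485 averaged 100 CPM or more at 12-18 h and 1779 at 5-9 h. No changed gene was without counts in every embryo of a window. The same held for every tested gene, so this does not set the changed genes apart. Counts were present in every 12-18 h embryo for 307 of the 335 higher genes, and in every 5-9 h embryo for 254 of them. For the 234 lower genes these numbers were 161 in every 12-18 h embryo and 233 in every 5-9 h embryo. Matching numbers over all tested genes were not counted, so these only describe the called genes.

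The changed genes took up a growing and a shrinking part of each embryo's RNA. The 335 higher genes held a lowest, median and highest share of 5.68%, 22.9% and 29.6% of transcript counts in the 10 embryos at 12-18 h, and 3.84%, 4.61% and 6.69% in the 8 embryos at 5-9 h. The 234 lower genes held 0.999%, 1.55% and 6.49% at 12-18 h, and 14.2%, 16.8% and 20.5% at 5-9 h. These embryos chose the genes, so the shares are a description. The embryos at 12 and 13 h had lower shares on the higher genes than the later ones: embryo 10, labelled 12 h, had 8.05%, embryo 11, labelled 13 h, had 5.68%, which is within the 5-9 h range, and embryo 92, also labelled 12 h, had 9.85%, while the 7 embryos at 14-18 h held 17.5% or more. The lower genes held 4.63%, 6.49% and 6.23% in the same 3 embryos and 1.86% or less from 14 h.

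The 4 embryos of 12-18 h that were left out for depth took no part in choosing the genes. Their shares on the higher genes were 16.7%, 22.7%, 26.5% and 17.1% in embryos 93 (13 h), 96 (16 h), 97 (17 h) and 98 (18 h). All 4 lay above the highest 5-9 h embryo. Their shares on the lower genes were 4.26%, 1.95%, 1.65% and 4.26%, all below the lowest 5-9 h embryo. The exact 95% intervals of these 8 shares cover the counting error of reads only. The widest ran from 15.6% to 18.7% for the higher genes and from 3.48% to 5.16% for the lower genes. Both were in embryo 98 with 2347 counts.

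**Figure D1:**
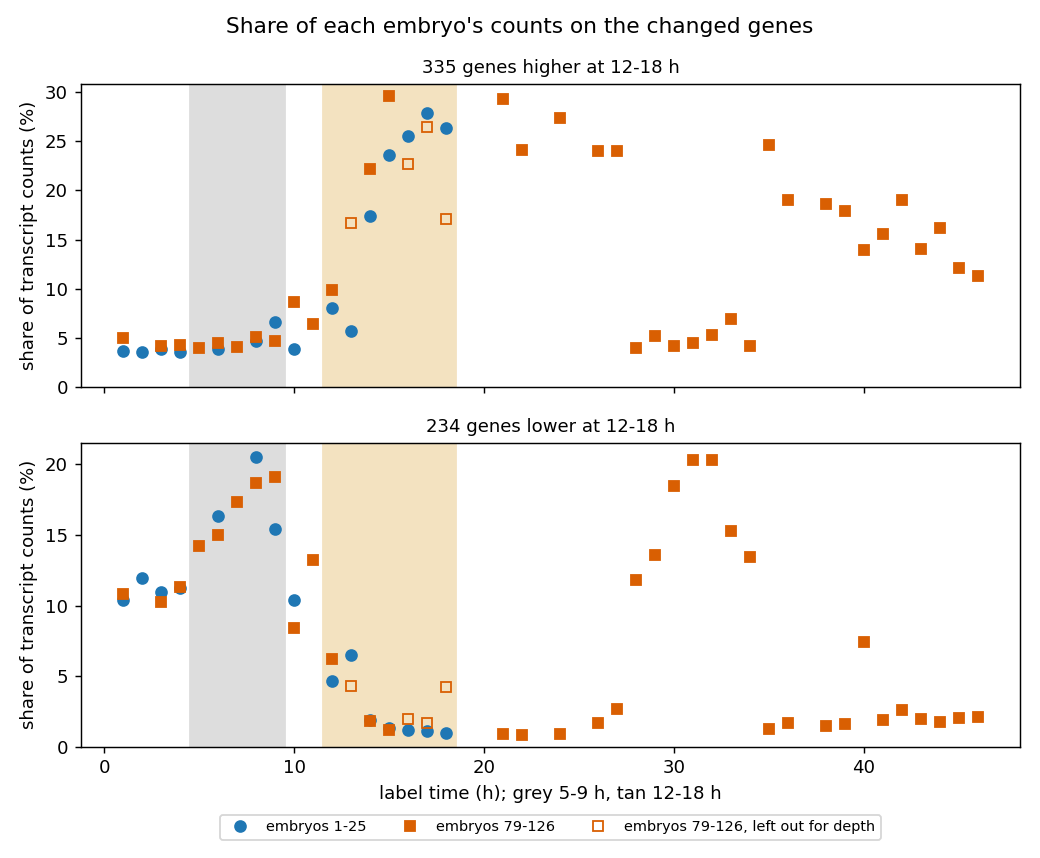
Share of each embryo's transcript counts (%, vertical axes) held by the 335 genes higher at 12-18 h (top) and the 234 genes lower at 12-18 h (bottom), by label time in hours; each point is 1 embryo, circles are embryos 1-25, squares embryos 79-126 and open squares embryos left out for depth. The 4 open squares lie above the 5-9 h embryos in the top panel and below them in the bottom panel, and the 7 embryos at 28-34 h lie near the 5-9 h embryos in both.

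The direction of change was the same in both runs for all 569 genes, where 69.8% of tested genes had the same sign. Since the fit that chose these genes used both runs, the runs were also taken apart. Within embryos 79-126 alone, 848 of 5214 tested genes changed (16.3%), 418 higher (8.02%) and 430 lower (8.25%) by edgeR's quasi-likelihood F-test at an adjusted p under 0.05. Leaving out embryo 86, 87, 94 or 95 gave 550, 483, 298 and 530 calls. A joint fit of both runs, which shares the spread between them, called 71 genes in this run, 66 higher and 5 lower. The 848 genes were then read in embryos 1-25, which share no embryo with that test. Of the 418 higher genes 391 were also higher in embryos 1-25 (93.5%, against 49.2% of all genes tested in embryos 79-126). Of the 430 lower genes 406 were also lower (94.4%, against 50.8% of all tested). Their median log2 change in embryos 1-25 was 1.18 for the higher and -1.22 for the lower genes, and in embryos 79-126, where they were chosen, 1.54 and -1.77.

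Embryos 1-25 alone, with 7 embryos at 12-18 h and 3 at 5-9 h, gave 1 call among 7993 tested genes (0.0125%) by the same edgeR test. That was HD_v1_tr_01840, lower at 12-18 h, and 762 genes (9.53%) had an unadjusted p under 0.05. The count moved with single embryos: it was 63 without embryo 10 (12 h), 33 without embryo 11, 14 without embryo 8 (9 h) and 0 without embryo 13 (15 h). The joint fit called 106 genes within embryos 1-25, 50 higher and 56 lower. Fewer calls in this run do not show a smaller change. The interaction of window and run, which tests that difference itself, passed the adjusted threshold for 0 of 7195 genes by edgeR (0%; 200 genes, 2.78%, at an unadjusted p under 0.05) and for 1 gene by DESeq2.

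**Figure D2:**
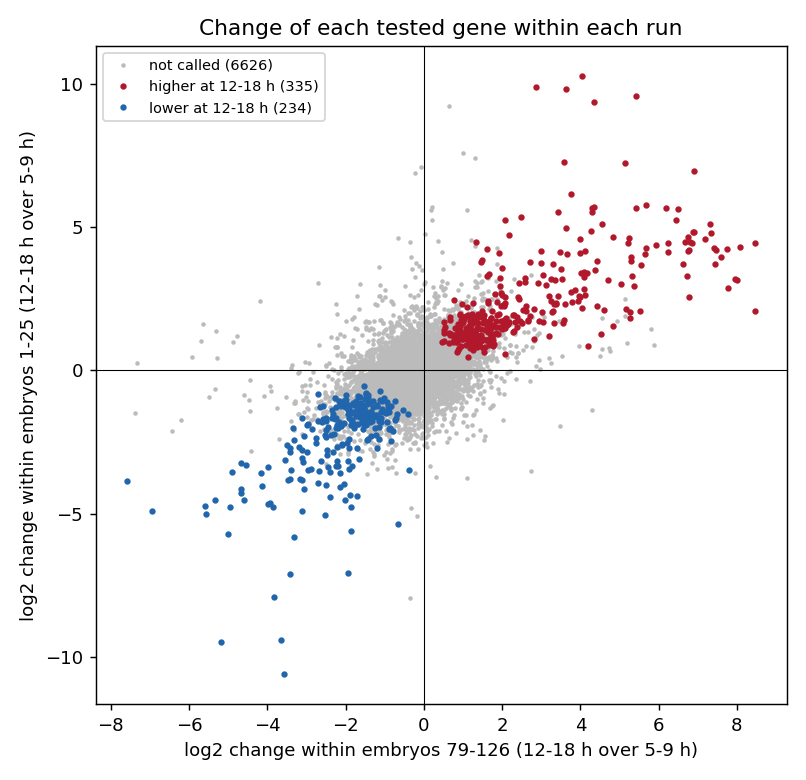
Log2 change of each tested gene, 12-18 h over 5-9 h, within embryos 79-126 (horizontal axis) and within embryos 1-25 (vertical axis); red points are the 335 genes called higher, blue points the 234 called lower and grey points the rest. All red points lie in the upper right and all blue points in the lower left; across the 5202 genes tested in each run alone, which are not independent, Pearson's r was 0.69 and Spearman's rho 0.62.

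The 4 transcript models described next were taken by rule as those with the largest change that both runs shared, among called genes with at least 50 CPM in the higher window of each run.

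HD_v1_tr_06809 ranked first among the 279 higher genes that met the level rule. It had 8.73, 47.9, 274.7, 1022, 302.9, 199.8 and 423.0 CPM at 12 to 18 h in embryos 1-25, and 125.6, 915.0 and 879.2 CPM at 12, 14 and 15 h in embryos 79-126. At 5-9 h it had 0, 9.06 and 0 CPM in embryos 1-25, at 6, 8 and 9 h, and 2.90, 32.3, 0, 7.15 and 0 CPM in embryos 79-126, at 5 to 9 h. The groups overlap, since embryo 10 at 12 h lay below embryos 7 and 86 at 8 and 6 h, while all 12-18 h embryos later than 12 h lay above every 5-9 h embryo. It averaged 419.9 ± 379.5 CPM at 12-18 h (SD, n = 10) and 6.42 ± 11.0 CPM at 5-9 h (SD, n = 8), a log2 change of 6.91 (SE 1.07, edgeR adjusted p = 0.00045).

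HD_v1_tr_05602 separated the windows completely. It had 54.2, 63.9, 198.5, 243.8, 406.2, 393.0 and 305.4 CPM at 12 to 18 h in embryos 1-25, and 125.6, 275.2 and 177.4 CPM in embryos 79-126. At 5-9 h it had 0, 0 and 14.7 CPM in embryos 1-25 and 1.16, 16.1, 2.09, 3.58 and 8.51 CPM in embryos 79-126. The lowest 12-18 h embryo, at 12 h, still lay above the highest 5-9 h embryo, at 6 h. It averaged 224.3 ± 124.0 CPM at 12-18 h (SD, n = 10) and 5.77 ± 6.56 CPM at 5-9 h (SD, n = 8), a log2 change of 5.69 (SE 0.88, edgeR adjusted p = 0.000445). The 5-9 h embryos held 46 counts of it in all, so its level there rests on few counts.

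HD_v1_tr_01840 ranked first among the 199 lower genes that met the level rule. It had 0 counts in 7 of the 10 embryos at 12-18 h and 1 count each in embryos 13 (0.270 CPM), 94 (3.44 CPM) and 95 (7.71 CPM). At 5-9 h it had 207.8, 39.3 and 68.0 CPM in embryos 1-25, and 85.1, 138.7, 130.8, 161.0 and 144.7 CPM in embryos 79-126. No embryo of one window reached the level of the other. Pooled over embryos, it had 3 counts at 12-18 h and 1312 counts at 5-9 h. The ratio per transcript count was 0.00196, with an exact 95% interval of 0.000404 to 0.00574. That interval covers the counting error of reads only. The fitted log2 change was -7.86 (SE 0.67, edgeR adjusted p = 7.47e-07) and depends on the prior count. Before 5 h, embryos 1-5 had 0.658 to 9.16 CPM, below the 5-9 h embryos of their run. In run 79-126 the earlier embryos 79, 81, 83 and 84 had 1.78, 91.7, 0 and 27.8 CPM, and embryo 81 (1 h, 6 counts) thus lay within the 5-9 h range.

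HD_v1_tr_04210 was among the abundant transcripts at 5-9 h. It had 102.2, 315.5, 21.4, 3.51, 39.5, 22.2 and 10.0 CPM at 12 to 18 h in embryos 1-25, and 94.2, 44.7 and 38.6 CPM in embryos 79-126. At 5-9 h it had 3956, 3134 and 401.3 CPM in embryos 1-25, and 3368, 4091, 4967, 2304 and 1541 CPM in embryos 79-126. The groups did not overlap, and they came closest at 13 h (embryo 11) and 9 h (embryo 8). It averaged 69.2 ± 92.6 CPM at 12-18 h (SD, n = 10) and 2970 ± 1488 CPM at 5-9 h (SD, n = 8), a log2 change of -5.20 (SE 0.68, edgeR adjusted p = 0.000195). Before 5 h, embryos 1-5 had 273.4 to 722.1 CPM, within or below the 5-9 h range of their run. In run 79-126, embryos 79, 81 and 83 had 412.7 to 668.3 CPM, below every 5-9 h embryo of that run, and embryo 84 (4 h) had 1949 CPM, within their range. All 4 models kept their direction and stayed past the threshold in each of the 29 or 30 alternatives that gave them a value.

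**Figure D3:**
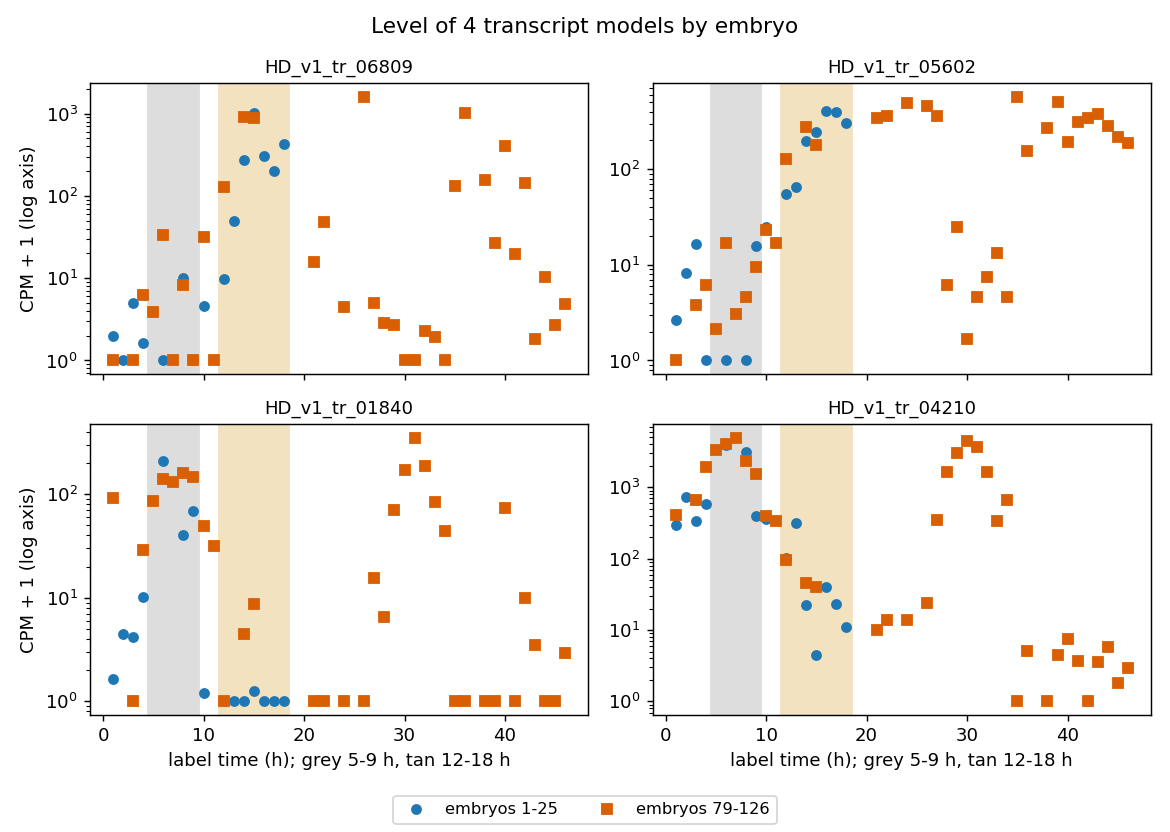
CPM + 1 (logarithmic vertical axes) of 4 transcript models in each kept embryo by label time in hours; circles are embryos 1-25 and squares embryos 79-126, the tan band is 12-18 h and the grey band 5-9 h. The upper pair of models is higher in the tan band and the lower pair in the grey band, and HD_v1_tr_04210 is again at 1616 to 4449 CPM at 28-32 h.

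The 5-9 h levels of the changed genes were also set beside those of the first hours. The embryos before 5 h were 5 in embryos 1-25 (2 cells to 4 h) and 4 in embryos 79-126 (1 cell to 4 h). Of the 234 lower genes, 147 (62.8%) lay within 2-fold of their earlier mean level at 5-9 h in both runs, a share at the background of 63.0% over all 7195 tested genes. A further 40 (17.1%) had risen over 2-fold by 5-9 h in both runs, against 4.88% of all tested genes, and so were higher at 5-9 h than both before and after. Of the 335 higher genes, 153 (45.7%) lay within 2-fold of the earlier level and 42 (12.5%) were already over 2-fold above it at 5-9 h. The 5-9 h level enters both the choice of the genes and these counts, so they are given with no test.

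The hours between the windows are described by run. In the 10 and 11 h embryos of run 79-126 the mean of 285 of the 335 higher genes lay above their 5-9 h mean (2822 of all 7195 tested genes did), and that of 220 of the 234 lower genes lay below it. In embryo 9, the 10 h embryo of run 1-25, 128 of the 335 higher genes lay above and 132 of the 234 lower genes lay below, with 4404 of all tested genes above. The lower genes held 10.4% of counts in embryo 9. That was near the 10.4% to 11.9% of the 1-4 h embryos of its run and below the 15.4% to 20.5% at 5-9 h. The higher genes held 3.88% in it, 3.56% to 3.84% at 1-4 h and 3.84% to 6.69% at 5-9 h. By these shares embryo 9 lay nearer to 1-4 h than between the windows, and the cause was not tested. A single embryo stands for that run, so the difference between runs was not tested.

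The later window was still changing inside itself. Of 7790 genes tested, 375 (4.81%) had an hourly slope within the 12-18 h embryos, 161 rising (2.07%) and 214 falling (2.75%), by edgeR's quasi-likelihood F-test at an adjusted p under 0.05. The median slope was 0.74 log2 units per hour for those rising and -1.16 for those falling. Of the rising genes 77 were among the 335 higher genes and 0 among the lower, and of the falling genes 32 were among the 234 lower genes and 1 among the higher. All 335 higher genes were tested for a slope, but only 213 of the 234 lower genes. Both tests use the same 12-18 h embryos. The slope test pooled both runs. In embryos 1-25 alone 144 genes passed, 52 rising and 92 falling. In embryos 79-126 alone, where 3 embryos span 12 to 15 h, 68 passed, 8 rising and 60 falling. Whether the same genes passed in each run was not checked.

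The number of genes detected was lower at 12-18 h on average, but the difference missed the threshold after adjustment over the 3 single measures tested. Each embryo was thinned at random to 129668 counts, the smallest kept total, so that depth was equal. Within embryos 1-25 there were 6461 ± 388 genes detected at 12-18 h (SD, n = 7) and 6961 ± 320 at 5-9 h (SD, n = 3). Within embryos 79-126 there were 7160 ± 414 at 12-18 h (SD, n = 3) and 7373 ± 191 at 5-9 h (SD, n = 5). The windows overlapped in both runs. The run-adjusted difference was -365 genes (exact 2-sided permutation p = 0.0402 over 6720 arrangements within runs, Benjamini-Hochberg adjusted p = 0.0603 over 3 measures). Counting only genes with at least 3 counts, it was -527 (exact permutation p = 0.00818, adjusted p = 0.0246). Neither run reached the threshold alone: the difference was -501 in embryos 1-25 (exact permutation p = 0.0833, where 120 arrangements are possible) and -213 in embryos 79-126 (exact permutation p = 0.411, with 56 arrangements).

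The share of counts on the 10 most abundant genes was higher at 12-18 h on average, and it too missed the threshold once adjusted. These genes held 15.5% to 23.9% of counts at 12-18 h and 9.55% to 17.7% at 5-9 h in embryos 1-25, and 13.7% to 24.2% at 12-18 h and 10.7% to 17.7% at 5-9 h in embryos 79-126. The run-adjusted difference was 4.91 percentage points (exact 2-sided permutation p = 0.0208, adjusted p = 0.0603), with 5.83 in embryos 1-25 (exact permutation p = 0.0583) and 3.88 in embryos 79-126 (exact permutation p = 0.304). For the 50 most abundant genes it was 8.40 percentage points (exact permutation p = 0.0144, adjusted p = 0.0433).

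Transcript counts per spike-in count compare the RNA recovered from an embryo with a standard added to it. The log2 difference was -0.53 after adjustment for run (exact 2-sided permutation p = 0.146, adjusted p = 0.146). It was -0.53 in embryos 79-126 (exact permutation p = 0.0357), where the embryos had 107 to 160 at 12-18 h and 142 to 204 at 5-9 h, and -0.53 in embryos 1-25 (exact permutation p = 0.558), where embryo 11 lay far below the rest. Read in the transcript-scaled test, the 78 spike-in RNAs had a median log2 change of 0.72. Of these 78, 5 were called, all higher at 12-18 h. In the main test 7.91% of all genes were called, 4.66% higher, so the number of spike-in calls does not set the spike-ins apart from the genes. Fewer cells, less RNA per cell and less complete recovery cannot be told apart in whole embryos.

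**Figure D4:**
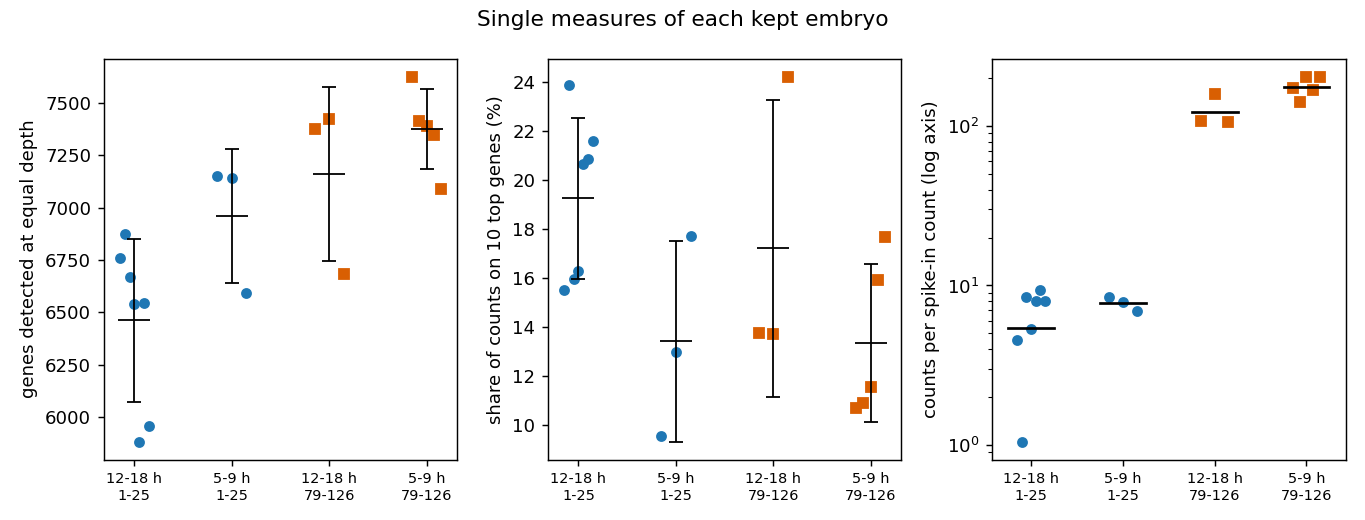
Genes detected at equal depth (left), share of counts on the 10 most abundant genes in % (middle) and transcript counts per spike-in count (right, log axis) for each kept embryo, by window and run; points are embryos, lines are means (of log2 values in the right panel) and bars in the left and middle panels are SD. In each run the 12-18 h mean is lower for genes detected and higher for the share, and the points of the windows overlap.

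After 18 h the changed genes were followed in the other embryos of run 79-126, none of which entered the tests above. At 19-27 h (5 embryos) the higher genes held 24.0% to 29.3% of counts and the lower genes 0.828% to 2.70%, shares like those at 14-18 h. By their mean level, 284 of the 335 higher genes and 222 of the 234 lower genes were nearer to 12-18 h than to 5-9 h. At 28-34 h (7 embryos) the higher genes held 4.00% to 6.92% and the lower genes 11.8% to 20.3%. There 33 of the 335 higher and 5 of the 234 lower genes were nearer to 12-18 h. At 35-46 h (11 embryos) the shares were 11.3% to 24.6% and 1.22% to 7.44%, with 272 and 188 genes nearer to 12-18 h. The genes nearer to a window were not counted over all tested genes, so these counts have no background beside them. Both reference levels come from the windows that chose the genes. HD_v1_tr_04210 had 8.90 to 350.0 CPM at 21-27 h, 338.7 to 4449 CPM at 28-34 h and 0 to 6.55 CPM at 35-46 h. HD_v1_tr_01840 had 0 to 14.5, 5.57 to 350.7 and 0 to 72.0 CPM in these blocks, and HD_v1_tr_05602 341.0 to 489.9, 0.674 to 23.7 and 152.6 to 573.8 CPM. HD_v1_tr_06809 did not keep its 12-18 h level, with 14.8, 47.6, 3.45, 1604 and 3.96 CPM at 21, 22, 24, 26 and 27 h. It had 0 to 1.86 CPM at 28-34 h and 0.843 to 1013 CPM at 35-46 h. Single genes thus could depart from the shares of the set.

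The likeness of the 28-34 h embryos to 5-9 h was not limited to the 569 called genes. Over the tested genes that were not called, all 7 embryos had a higher mean Spearman correlation with 5-9 h than with the kept 12-18 h embryos of their run. Of the 11 embryos at 35-46 h, 0 did. Genes not called can still differ between the windows, since 1645 of the 7195 tested had an unadjusted p under 0.05 by edgeR. These correlations therefore do not show a likeness in genes that stay the same between the windows. Across all tested genes, the single embryo most like each of them among those up to 27 h was labelled 5 h for embryos 108, 109, 110 and 114, 7 h for embryo 111, 8 h for embryo 112 and 11 h for embryo 113, with Spearman correlations of 0.874 to 0.955. By the chi-square of their counts the nearest were labelled 4, 5, 6, 8, 8, 10 and 5 h for embryos 108 to 114, with a mean chi-square per gene of 6.08 to 19.4. The lowest, for embryos 108 (28 h) and 84 (4 h), lay below that of every pair of kept embryos of the same window and run, which was 7.20 or more. Sampling noise alone gives 1, but reads amplified from the same RNA can exceed it, so the chi-square does not show whether 2 libraries came from different embryos. The cause was not tested, and none of these embryos entered the test between the windows.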

How the data were processed

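The authors deposited unnormalized read counts for 12746 transcript models, 92 spike-in RNAs and 5 summary rows. The submitters' processing notes name HTSeq 0.5.4p3, Bowtie2 2.1.0 and CASAVA 1.8. The genome build is not given in the sources used here, nor is the annotation. Counts are reads without molecular identifiers, so intervals cover the counting error of reads only and may be too narrow for RNA molecules. Library sizes and tests used transcript models only. Embryos under 10% of the median total over all 126 embryos (under 63404 counts) were left out.

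Genes were tested with edgeR 4.0.16 (R 4.3.3): TMM factors, the default filter on low counts, trended dispersions, the quasi-likelihood F-test on window plus run, and Benjamini-Hochberg adjustment at 0.05. SE is the absolute log2 change divided by the square root of F. Single measures were tested by exact permutation of the windows within runs (Python 3.11.15, numpy 2.4.6). Thinning was without replacement, averaged over 20 repeats. Alternatives used RLE factors, DESeq2 1.42.0, limma 3.58.1, spike-in scaling, other filters and windows, and leaving out each embryo. The test was tried on simulated data with 200 changed genes. At the trended dispersion of these data it recovered 2% of 2-fold, 56.5% of 4-fold and 77.5% of 16-fold changes. At a dispersion of 0.1 it recovered 61.5%, 93.5% and 95.5%. Most 2-fold changes would thus be missed at the spread of these embryos.

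The windows, the depth threshold and the tests were chosen with earlier results of these data known. The gene lists written with them were not applied, because the files pair no ID with a name. Named IDs were the 2 highest and the 2 lowest by the smaller of their 2 within-run changes, among called genes with the same sign in both runs and, in each run, 50 CPM or more on average in whichever window was higher. The 37 same-window pairs of kept embryos within a run had a mean chi-square per gene of 7.20 to 363, where sampling noise alone gives 1. Without molecular identifiers, repeats of the same RNA could exceed 1 too. Each embryo was counted as 1 sample, as the labels have it.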

Additional observations from a re-analysis of the deposited data

Results flagged for a closer look

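In 16 checks for a single value far from the rest, 6 values stood apart. The checks took several measures in the 7 embryos at 12-18 h of run 1-25 and the 5 at 5-9 h of run 79-126. The other window of each run, with 3 kept embryos, was too small. A rate of about 1 in 20 by chance assumes normally distributed values, which was not checked. The named models among the measures were also chosen from these embryos. Embryo 11 (13 h, run 1-25) had 250397 transcript counts, against 1442738 to 4104690 in the other 12-18 h embryos of its run. Its ratio of transcript to spike-in counts was 1.05, where theirs was 4.58 to 9.40. The same embryo had 315.5 CPM of HD_v1_tr_04210, against 3.51 to 102.2 CPM. HD_v1_tr_06809 had 1022 CPM in embryo 13 (15 h), against 8.73 to 423.0 CPM in the other 12-18 h embryos of that run, and 32.3 CPM in embryo 86 (6 h), against 0 to 7.15 CPM in the other 5-9 h embryos of run 79-126. HD_v1_tr_01840 had 0.270 CPM in embryo 13, which is 1 count, against 0 in the other 6, where any count would stand apart.

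Data outside the test between the windows also held a signal. In the 7 embryos labelled 28-34 h the genes lower at 12-18 h held a median of 15.3% of counts and the genes higher at 12-18 h held a median of 4.55%. The kept 12-18 h embryos of the same run held 1.18% to 6.23% and 9.85% to 29.6%, and its 5-9 h embryos 14.2% to 19.1% and 3.99% to 5.15%. In these shares the hours before (19-27 h) and after (35-46 h) looked like 12-18 h, and the cause was not tested. Among the spike-in RNAs, which were read only as a check, 5 of 78 were called higher at 12-18 h. Of all genes in the main test, 335 of 7195 (4.66%) were called higher, so this number does not set the spike-ins apart. No gene passed the edgeR test that its change differs between the runs (200 at an unadjusted p under 0.05).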

How the results depend on the processing

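No paired analysis was possible because embryo numbers do not repeat between the windows, so no replicate block could be formed. The number of changed genes moved with the setting. DESeq2 gave 987 changed genes (612 higher, 375 lower), a linear term for the hour over 5-18 h gave 1738 (905 and 833), a test against a 1.5-fold change gave 262 (172 and 90), windows of 7-9 h and 12-15 h gave 86 (39 and 47), and spike-in scaling gave 1329 (143 and 1186). Limma on log2 CPM gave 445 lower genes beside 371 higher (45.5% higher), and keeping every embryo whatever its depth gave 370 lower beside 261 higher (41.4% higher). RLE factors, no filter on low counts, no run term, and counts thinned to equal depth (chosen after seeing the data; 237 higher and 178 lower of 2300 tested, 312 of them among the 569) stayed within 1.5 times of the main totals. Leaving out 1 embryo gave 310 (without embryo 6) to 921 (without embryo 11, 437 lower), with 193 to 484 higher and 117 to 437 lower; the total was 371, 367 and 357 without embryos 7, 94 and 95. Within embryos 1-25 it gave 0 to 63 calls, and within embryos 79-126 298 (without embryo 94) to 1004, with 550, 483 and 530 without embryos 86, 87 and 95. A joint fit, chosen after seeing the data, called 106 (50 higher, 56 lower) and 71 (66 and 5) genes within embryos 1-25 and 79-126. The interaction had 1 call by DESeq2, and hourly slopes numbered 144 and 68 in the runs alone. Genes at equal depth differed by -438 to -287 with 1 embryo left out (exact permutation p 0.0238 to 0.110), and by -501 and -213 within the runs. The share of the 10 top genes differed by 3.62 to 5.75 percentage points (exact permutation p 0.0107 to 0.0764), and by 5.83 and 3.88 within the runs. Log2 counts per spike-in differed by -0.61 to -0.33 with 1 embryo left out, and by -0.53 in embryos 79-126, where it passed alone. The balance of higher and lower genes turned to the lower side under limma, the narrower windows, spike-in scaling and no depth filter. Over all tested genes, the median change (log2) of -0.01 became 0.02 with no run term and 0.06 with thinned counts. It became -0.17 with limma, -0.15 with no embryo left out for depth and -0.71 with spike-in scaling. No difference of a single measure and no named ID changed sign. The causes were not tested. With TMM factors over all kept embryos, chosen after seeing the data, the higher genes at 28-34 h lay at a median log2 level of 0.11 relative to 5-9 h, against 0.28 without them. Depth limits run 79-126, whose 12-18 h embryos hold at most 290699 counts.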

Other observations

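A small number of models were seen in one window alone. Of the 12746 models, 7 had no count in the 8 embryos at 5-9 h and counts in 7 or more of the 10 embryos at 12-18 h. In the other direction, 30 had no count in the 10 embryos at 12-18 h and counts in 6 or more of the 8 embryos at 5-9 h. These minimums were chosen after seeing the data, and none of these models is among the genes tested. The minimums differ between the directions, and the counts were not thinned to equal depth. The shallowest kept embryos, with 129668 to 290699 counts, were at 12-18 h, where every 5-9 h embryo had 309949 or more. The numbers 7 and 30 therefore cannot be compared with each other.

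Embryos were less alike across the windows than within them, by the medians in both runs. The median Spearman correlation of a 12-18 h embryo with a 5-9 h embryo across tested genes was 0.593 in embryos 1-25 and 0.690 in embryos 79-126. Among 12-18 h embryos it was 0.662 in embryos 1-25 and 0.776 in embryos 79-126, and among 5-9 h embryos 0.705 and 0.899. The embryos share their run, and those of run 79-126 differ in depth between the windows.

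The transcript model that took 13.8% of the counts of embryo 11 also led embryos 17, 18, 19 and 21 (80, 82, 83 and 86 h of the same run), with 51.3%, 58.2%, 55.0% and 59.9% of their counts. Those 4 embryos had 0.170 to 0.268 transcript counts per spike-in count. Embryo 24 (97 h) had 10.4% on it, with 1.10 transcript counts per spike-in count. The model was not particular to this run. Embryos of run 26-78 were led by it too, among them 39, 40, 49 and 76 (60, 61, 70 and 97 h). These had 68.2%, 70.6%, 72.5% and 27.4% on it, with 0.164, 0.146, 0.225 and 0.576 transcript counts per spike-in count. It also led embryos 20, 23 and 37 at 2.37%, 1.22% and 6.12%, with ratios of 4.49, 9.42 and 2.04.

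The 7 embryos labelled 28-34 h can be set beside hours labelled a day earlier. By chi-square, embryos 108, 109, 110 and 112 (28, 29, 30 and 32 h) were nearest to embryos labelled 4, 5, 6 and 8 h, each exactly 24 h earlier. Embryos 111, 113 and 114 (31, 33 and 34 h) were nearest to 8, 10 and 5 h. This was noticed in the data, and its cause was not tested.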
